A study of Mus musculus with 6 samples.

Results

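Mannose and scavenger receptors were compared between dendritic cells kept on spleen stroma (diffDC) and the mature dendritic cells they came from (maDC). The set held 10 genes, taken by symbol: Mrc1, Cd36, Msr1, Marco, Stab1, Cd163, Scarb1, Scarb2, Cd68 and Olr1. All 10 had a row among the 15282 genes of the deposited table. Both groups came from wild-type C57/BL6 bone marrow. The marrow was grown in GM-CSF plus IL-4, over 6 days, and LPS, the bacterial endotoxin, was on the cells for a further 24 hours. CD11c, an integrin of dendritic cells, was then used to pull cells out on magnetic beads, which gave maDC. The diffDC had, in addition, 9 days of coculture with spleen stromal cells, and a step that parted them from the stroma afterwards is not named in the labels. No group was kept for those 9 days without stroma, so the coculture and the added time after LPS cannot be told apart. The labels list 3 libraries for each group, but a gene had a single pooled value for each, and the pools totalled 89836110 reads for diffDC and 69190437 for maDC. No spread between cultures could therefore be measured, no difference below has a replicate check, and every interval is a 95% interval for counting error alone.

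Scavenger receptors are proteins of unrelated build that are grouped by what they bind: oxidised or acetylated lipoproteins, dying cells, microbial surfaces and spent plasma proteins. The mannose receptor is a C-type lectin that takes up glycoproteins ending in mannose and other sugars. Macrophages of the spleen and of other tissues use these receptors to clear particles from blood and tissue fluid, and in mouse macrophages IL-4 is known to raise Mrc1, whereas LPS is known to raise Marco.

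The 250 bases before the start sites of Mrc1 and Stab1, the members with the highest ratios, and of Marco and Olr1, which were lower in diffDC, show which myeloid transcription factor motifs lie next to genes that moved in opposite directions. Promoter sequences from RefSeq on GRCm38.p6 were matched for 8 of the 10 members. Capitals mark GAGGAA (the core bound by PU.1, the myeloid master regulator), TGANTCA (AP-1) or TGCTGA (a MAF half-site), on either strand. Each sequence is given on its gene's own strand, 5′ to 3′. They lie at chr2:14229164-14229413 on the plus strand for Mrc1, and on the minus strand at chr14:31168642-31168891 for Stab1, chr1:120505025-120505274 for Marco and chr6:129507166-129507415 for Olr1.
Mrc1: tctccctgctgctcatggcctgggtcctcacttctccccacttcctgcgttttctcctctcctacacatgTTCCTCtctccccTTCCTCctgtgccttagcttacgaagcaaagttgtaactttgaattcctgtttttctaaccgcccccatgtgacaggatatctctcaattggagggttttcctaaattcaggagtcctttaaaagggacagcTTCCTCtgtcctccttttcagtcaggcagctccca
Stab1: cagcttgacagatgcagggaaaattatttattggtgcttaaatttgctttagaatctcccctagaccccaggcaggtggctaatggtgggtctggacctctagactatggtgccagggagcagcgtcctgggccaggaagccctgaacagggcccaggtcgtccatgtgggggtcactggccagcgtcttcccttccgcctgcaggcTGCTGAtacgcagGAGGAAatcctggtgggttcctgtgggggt
Marco: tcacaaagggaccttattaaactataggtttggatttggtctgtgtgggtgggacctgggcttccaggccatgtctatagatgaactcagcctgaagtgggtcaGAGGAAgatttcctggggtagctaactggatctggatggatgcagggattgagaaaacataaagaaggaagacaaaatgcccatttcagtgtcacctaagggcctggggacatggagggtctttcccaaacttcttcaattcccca
Olr1: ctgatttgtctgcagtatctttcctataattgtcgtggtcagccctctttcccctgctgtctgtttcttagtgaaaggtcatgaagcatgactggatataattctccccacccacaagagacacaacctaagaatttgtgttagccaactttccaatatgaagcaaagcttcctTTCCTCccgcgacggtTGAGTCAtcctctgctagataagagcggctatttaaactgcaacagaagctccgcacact

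GAGGAA or its complement was found in 5 of the 8 member promoters, at 3 places in Mrc1 and at 1 place each in Stab1, Marco, Cd68 and Olr1. Across 32851 promoters of the same length, 23.3% held it. It stood before members that were higher and before members that were lower in diffDC. TGANTCA was found in Cd68, at 2 places, and in Olr1, and in 6.75% of all promoters. TGCTGA was found in Cd36, Stab1 and Scarb2, and in 16.1% of all promoters. CACGTG (the E-box of the lysosomal MiT/TFE factors) was in none of the 8 windows, and in 6.02% of all promoters. No 2 matches overlapped. Start sites were those of RefSeq, and the bases after them were not found in a GENCODE transcript for Cd36, Cd163 and Cd68. The windows of Cd36 (chr5:17835897-17836146) and Scarb2 (chr5:92505658-92505907) lay inside the GENCODE spans of these genes. That of Mrc1 ran past the GENCODE start. A match is a description of letters, not a site of binding, and the motifs were picked after the values were seen.

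Of the 10 receptors, 5 were higher in diffDC (Mrc1, Stab1, Msr1, Cd163 and Cd68), 2 were lower (Olr1 and Marco), and 3, all of class B (Cd36, Scarb1 and Scarb2), did not pass the rule. The rule asked for a ratio of at least 2-fold, after scaling the libraries with TMM factors (a trimmed mean over genes, which takes most of them to be unchanged), and a counting interval that excluded no difference. Of all 15282 genes, 44.3% passed it, 23.3% higher and 21.0% lower in diffDC, so calls were common, and 7 called receptors of 10 cannot be read as a property of the set. The median log2 ratio of diffDC over maDC was 0.98 for the receptors and 0.03 for all genes. Under the library factor in the authors' deposited log2 ratios, which lifts every gene by 0.44 on the log2 scale, 7 receptors were higher and 2 lower, while 47.9% of all genes passed. That was 4915 genes higher (32.2%) and 2400 lower (15.7%), against 3562 higher and 3204 lower with TMM.

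**Figure D1:**
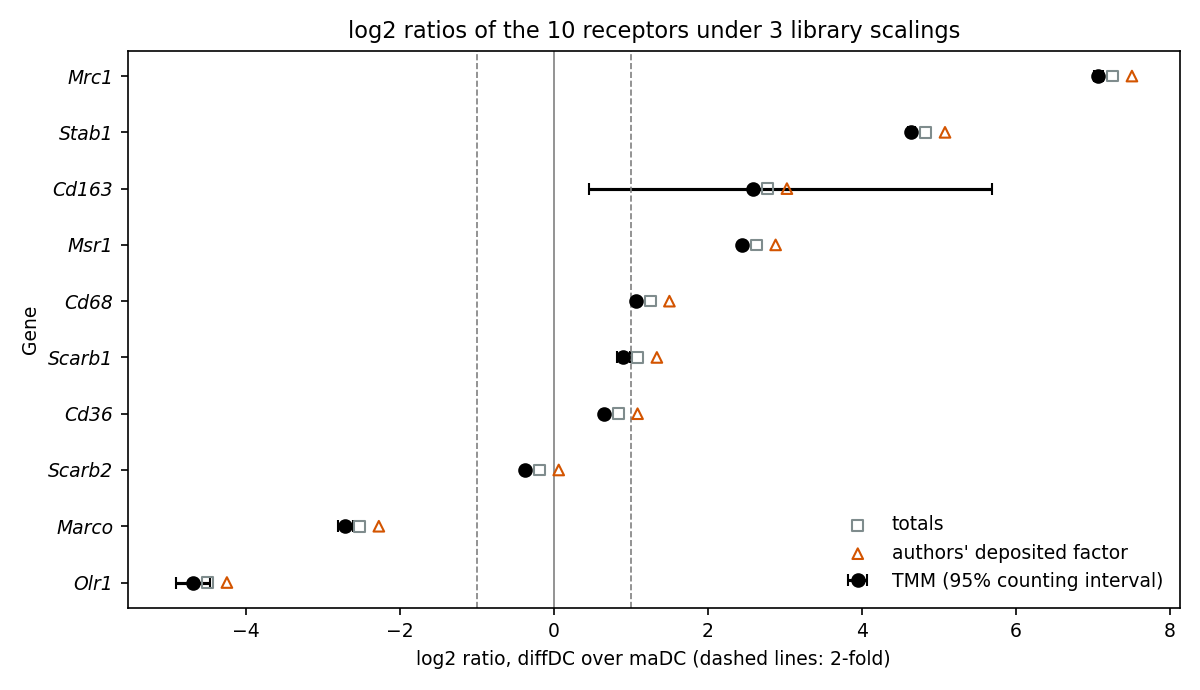
log2 ratio of diffDC over maDC (horizontal axis) for each of the 10 receptors (vertical axis), from the pooled reads. Black points show TMM scaling with 95% counting intervals, grey squares scaling by total reads and orange triangles the authors' deposited library factor; dashed lines mark 2-fold. Mrc1 is at 7.07 and Olr1 at -4.68 with TMM, and Scarb2 is the receptor whose sign depends on the scaling.

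Markers of other cells differed between the same pools, in which 23.3% of all genes were called higher and 21.0% lower in diffDC. All 8 called genes of a 10-gene macrophage list were higher in diffDC, and the list summed to 22730 CPM (reads relative to the TMM-scaled library size) in diffDC and 5610 CPM in maDC. Of 10 dendritic cell markers 9 were lower and none higher, with sums of 939.5 CPM in diffDC and 11100 CPM in maDC. Itgax, which encodes CD11c, had 34456.95 reads in diffDC and 26978.32 reads in maDC, a log2 ratio of -0.21 that did not pass and that was 0.23 with the authors' factor. Of 10 fibroblast and reticular stroma markers 9 were higher and none lower, with sums of 673.5 CPM in diffDC and 14.7 CPM in maDC, and none was at 0 in either pool. The part of these cells in the receptors' ratios was not tested, and in bulk RNA fewer cells of a type and less RNA per cell cannot be told apart.

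Mrc1, the macrophage mannose receptor (CD206), had 535230 reads in the diffDC pool and 2700 reads in the maDC pool. It was 134-fold higher in diffDC (interval 129 to 139), a log2 ratio of 7.07. Mrc1 held 0.596% of all diffDC reads (exact binomial interval 0.594 to 0.597%), ranking 8th of all genes by reads, and 0.0039% of maDC reads, ranking 4547th. Of the 9957 genes that averaged 5 CPM or more, its ratio was the 75th highest. The gene (Entrez 17533) is protein coding and spans 14229392 to 14332057 on the plus strand of chromosome 2 in GRCm38, by GENCODE M21, with 30 exons in its longest transcript.

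The 3 other genes of the mannose receptor family in mice did not share one direction. Mrc2 (Endo180), a collagen receptor of mesenchymal cells, had 939 reads in diffDC and 60 in maDC and was 10.6-fold higher (interval 8.15 to 14.0). Stroma markers summed to 673.5 CPM in diffDC and 14.7 CPM in maDC, and their part in the ratio of Mrc2 was not tested. Ly75 (DEC-205), an antigen uptake receptor of dendritic cells, had 972.73 reads in diffDC and 31604.13 in maDC and was 48.0-fold lower (interval 45.0 to 51.2). Pla2r1, a phospholipase A2 receptor, had 41 reads in diffDC and 30 in maDC, a log2 ratio of -0.11 that did not pass and was 0.32 with the authors' factor. The level of Mrc1 per kilobase was 535 times that of Ly75 in diffDC and 0.0831 times that of Ly75 in maDC, a comparison within each pool that no library factor can change.

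Stab1 (stabilin-1, class H), which takes up acetylated lipoprotein and the matrix protein SPARC in macrophages and sinusoidal endothelium, had 122682 reads in diffDC and 3328 in maDC. It was 25.0-fold higher in diffDC (interval 24.1 to 25.8), and its ratio was the 249th highest of the 9957 genes. Of 6 measured endothelial markers, none was higher and 4 were lower in diffDC, with sums of 43.61 CPM in diffDC and 190.1 CPM in maDC. Only 1 of the 6, Kdr, averaged 5 CPM or more, and it was lower. Kdr alone had 39.07 CPM in diffDC and 170.6 CPM in maDC, most of both sums. Cdh5, the cadherin of endothelial junctions and the lowest ratio of the 6, had 27 reads in diffDC and 300 in maDC. Lyve1 had 26 reads in diffDC and 21 in maDC, Tek had 7 and 4, and neither passed. The part of endothelial cells in the ratio of Stab1 was not tested. The paralog Stab2, named here after its values were seen, had 388 reads in diffDC and 8 in maDC, 32.8-fold higher (interval 16.5 to 76.6), and the level of Stab1 per kilobase was 322 times that of Stab2 in diffDC and 423 times in maDC. Their log2 ratios differed by -0.40 with an interval of -1.41 to 0.62, which includes no difference. On chromosome 14, Stab1 (Entrez 192187) runs between 31139013 and 31168641 on the minus strand. Its exons overlap those of Nt5dc2 on the other strand over 112 bases, and whether the counting used strand is not stated.

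The class A receptors, which are trimeric proteins with a collagen-like stalk, split. Msr1, the macrophage receptor for acetylated lipoprotein (SR-A), had 68784 reads in diffDC and 8568 in maDC and was 5.43-fold higher (interval 5.31 to 5.56). Marco, which binds bacteria and inhaled particles and is made by marginal zone macrophages of the spleen, had 1000 reads in diffDC and 4428 in maDC and was 6.54-fold lower (interval 6.11 to 7.01). Per kilobase of deposited length, the level of Msr1 was 53.5 times that of Marco in diffDC and 1.50 times in maDC. That comparison of levels depends on the length: with merged exons Msr1 had 113 and Marco 5.42 CPM per kilobase in diffDC, while Msr1 had 20.8 and Marco 35.5 in maDC, where Msr1 then lay below Marco. The log2 ratios of the pair, which use no length, differed by 5.15 (interval 5.05 to 5.26), whatever the library factor. Msr1 (Entrez 20288) lies at 39581685 to 39642673 on chromosome 8 and Marco (Entrez 17167) at 120474538 to 120505024 on chromosome 1, both on the minus strand.

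The class B receptors, which cross the membrane near both ends and bind lipids or lipoproteins, had the 3 smallest changes of the set in either direction. Cd36, a fatty acid carrier that also takes up oxidised lipoprotein, had 54948.79 reads in diffDC and 23715.19 in maDC, a log2 ratio of 0.65 (interval 0.63 to 0.67). Scarb1, the receptor for high-density lipoprotein, had 4631 reads in diffDC and 1680 in maDC, a log2 ratio of 0.90 (interval 0.82 to 0.98). Scarb2 (LIMP-2), a protein of the lysosomal membrane, had 31176 reads in diffDC and 27353 in maDC, a log2 ratio of -0.37 (interval -0.40 to -0.35). These 3 ratios lay under 2-fold with TMM. With the authors' library factor the log2 ratios were 1.09 for Cd36, 1.34 for Scarb1 and 0.06 for Scarb2, so Cd36 and Scarb1 then passed and Scarb2 changed sign.

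Within the class, the order of the ratios does not rest on the scaling. The log2 ratio of Scarb1 was 1.27 above that of Scarb2 (interval 1.19 to 1.36), that of Cd36 was 1.02 above that of Scarb2 (interval 0.99 to 1.06), and that of Cd36 was 0.25 below that of Scarb1 (difference -0.25, interval -0.33 to -0.17). These intervals were computed on the log scale from the reads and cover counting error only. On chromosome 5, Cd36 (Entrez 12491) spans 17781690 to 17888801, Scarb2 (Entrez 12492) 92441314 to 92506833 and Scarb1 (Entrez 20778) 125277087 to 125341094, all on the minus strand.

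Cd68 (macrosialin, class D), a heavily glycosylated protein of late endosomes and lysosomes used to stain macrophages, had 86212 reads in diffDC and 27932 in maDC. It was 2.09-fold higher in diffDC (interval 2.06 to 2.12), just past the size limit. Olr1 (LOX-1, class E), a C-type lectin-like receptor for oxidised lipoprotein, had 175.34 reads in diffDC and 3047.23 in maDC and was 25.7-fold lower (interval 22.1 to 30.1), the 207th lowest ratio of the 9957 genes. Cd163 (class I), the receptor that macrophages use to clear haptoglobin-bound haemoglobin, had 17.06 reads in diffDC and 1.92 in maDC. Its ratio was 6.01 with an interval of 1.37 to 51.3, and its level, 0.178 CPM in diffDC and 0.0296 CPM in maDC, was the lowest of the set in both pools. The reads of Cd36, Olr1 and Cd163 carried decimals, so reads shared with other sequences could have been divided for these genes. On chromosome 11, Cd68 (Entrez 12514) spans 69664213 to 69666153 on the minus strand, and on chromosome 6 Olr1 (Entrez 108078) spans 129485244 to 129507165 on the minus strand and Cd163 (Entrez 93671) 124304656 to 124330527 on the plus strand.

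**Figure D2:**
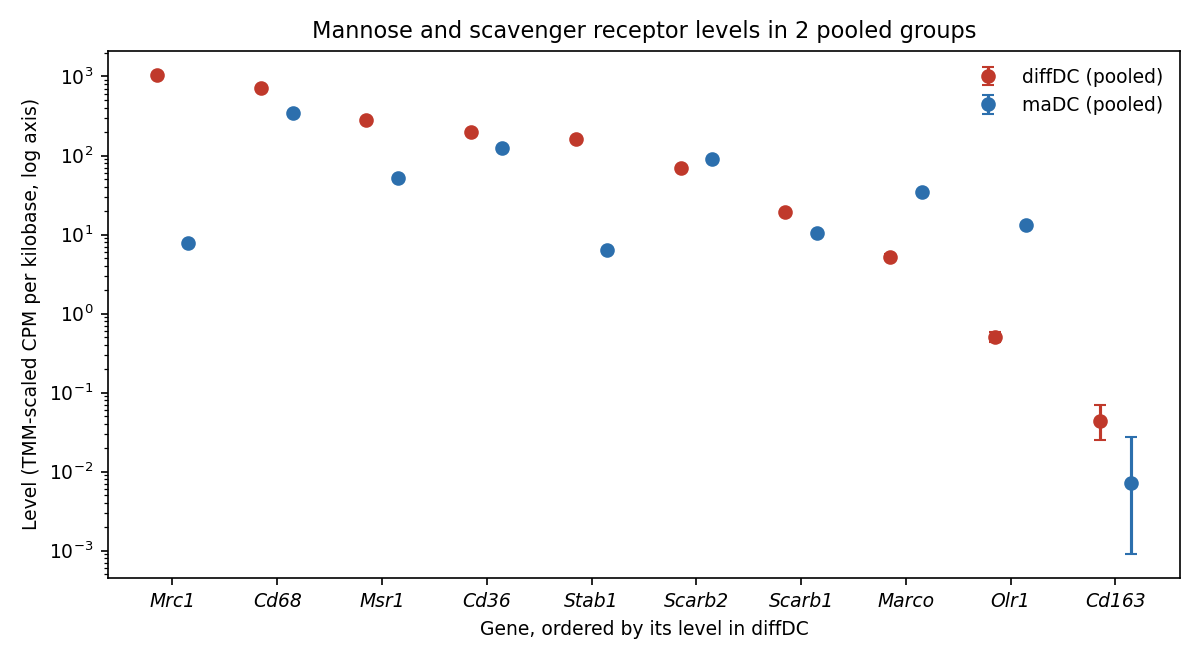
Level of each receptor in TMM-scaled CPM per kilobase (log axis) in the diffDC pool (red) and the maDC pool (blue), ordered by the diffDC level. Bars are exact Poisson 95% intervals for counting error and are hidden by most points. Mrc1 stands at 1050 in diffDC and 7.83 in maDC, and Cd163 is the lowest in both.

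The order of the receptors by level per kilobase of the deposited gene length differed between the pools. In diffDC the level of Mrc1 came first, at 1050 CPM per kilobase, followed by Cd68 at 721, Msr1 at 281, Cd36 at 196, Stab1 at 160 and Scarb2 at 68.9. Scarb1 had 19.3, Marco 5.26, Olr1 0.511 and Cd163 0.0433 CPM per kilobase in diffDC. In maDC the level of Cd68 came first, at 345 CPM per kilobase, followed by Cd36 at 125, Scarb2 at 89.3, Msr1 at 51.7 and Marco at 34.4. Olr1 had 13.1, Scarb1 10.4, Mrc1 7.83, Stab1 6.42 and Cd163 0.00721 CPM per kilobase in maDC. No 2 neighbours in either order had overlapping counting intervals, but with merged exons as the length 3 receptors in diffDC and 5 in maDC took another place. Cd36, at 160 CPM per kilobase, Stab1, at 124, and Msr1, at 113, then followed Cd68 in diffDC.

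Summed over the 10 receptors, the level was 2502 CPM per kilobase in diffDC and 683 in maDC, or 3.66 times as high in diffDC. Mrc1 made up 42.0% of that sum in diffDC and 1.15% in maDC, and Cd68 made up 28.8% in diffDC and 50.5% in maDC. Without Mrc1 the sum was 1452 in diffDC and 675 in maDC, 2.15 times as high in diffDC. Of the shares in maDC, Cd36 held 18.3% and Scarb2 13.1%, and in diffDC they held 7.82% and 2.75%.

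**Figure D3:**
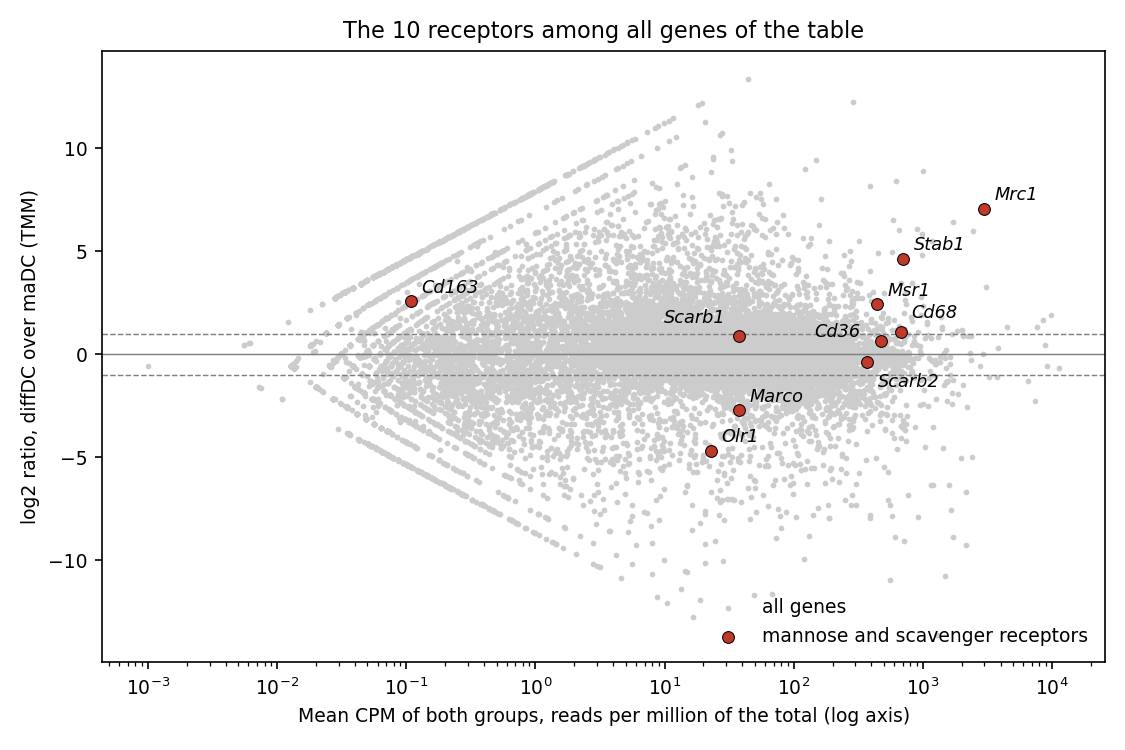
log2 ratio of diffDC over maDC with TMM scaling (vertical axis) against mean CPM of both groups (log axis) for all genes of the table (grey) and the 10 receptors (red). Dashed lines mark 2-fold. Mrc1, at 7.07, and Stab1, at 4.64, lie among genes of high abundance, while Cd163 lies where the ratios follow single reads.

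Scavenger receptors outside the set went both ways as well. Of 13 measured, 6 were higher and 5 lower in diffDC, with a median log2 ratio of 1.13, against 0.03 for all genes. Among all genes 23.3% were higher and 21.0% lower. Scara5, a ferritin receptor, had 1002 reads in diffDC and 0 in maDC. It was 226-fold higher with 3 reads in the whole maDC pool taken as the floor, and its counting interval began at 184-fold. The stroma markers, at 673.5 CPM in diffDC and 14.7 CPM in maDC, were higher in the same pool, and their part was not tested. Cxcl16, which is both a membrane scavenger receptor and a chemokine, was the largest fall, with 13151 reads in diffDC and 92164 in maDC, 10.4-fold lower (interval 10.2 to 10.5). Lrp1, a large endocytic receptor named here after its values were seen, had 511604 reads in diffDC and 35794 in maDC, 9.67-fold higher (interval 9.57 to 9.78). With scaling by totals 6 of the 13 were higher and 3 lower, and with the authors' factor 7 were higher and 3 lower. Among those that averaged 5 CPM or more 4 were higher and 2 lower.

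Of 13 partners and sorting factors of the receptors, 4 were higher and 2 lower, near the 44.3% called among all genes, with a median log2 ratio of -0.14. Gulp1, an adaptor of engulfment receptors, the stabilins among them, had 167 reads in diffDC and 12 in maDC, 9.42-fold higher (interval 5.25 to 18.6). Snx17, a sorting factor of endosomes, had a log2 ratio of 0.17. Gga1, Gga2 and Gga3, which sort receptors between endosomes and the Golgi, had log2 ratios of -0.39, -0.88 and -0.18. Pdzk1, which anchors Scarb1 in the liver, had 4 reads in diffDC and 18 in maDC and was 6.65-fold lower (interval 2.19 to 27.0). The signs of Gga1 and Gga3 turned with the authors' factor, to 0.04 and 0.25, and 1 gene of the 13 was then lower.

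Of 14 genes of lipid and heme handling, 3 were higher and 3 lower, near the 44.3% called among all genes. Their median log2 ratio was 0.18. Hpgds, a prostaglandin D synthase, had 27958 reads in diffDC and 246.27 in maDC and was 76.8-fold higher (interval 67.8 to 87.6). Hmox1, the heme oxygenase that degrades heme delivered by Cd163, had 19215 reads in diffDC and 150965 in maDC and was 11.6-fold lower (interval 11.4 to 11.8). The other higher genes were Apoe, a lipoprotein gene, at a log2 ratio of 6.01, and Lipa, the lysosomal acid lipase, at 1.63, and the other lower genes were Npc2, a lysosomal cholesterol carrier, at -1.90 and Hp, haptoglobin, at -1.80. With the authors' factor 6 of the 14 were higher, and with scaling by totals 5 were. Among markers of splenic red pulp macrophages, the cells that recycle iron, Hmox1 and Spic were lower and Slc40a1 and Vcam1 higher, and 2 of 5 were higher and 3 lower in all.

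Of 14 transcription factors that are known to drive members in other settings, 4 were higher and 3 lower. That was near the 44.3% called among all genes, and the median log2 ratio was 0.54. Maf, a factor of resident macrophages, had 24223.38 reads in diffDC and 323.75 in maDC and was 50.6-fold higher (interval 45.3 to 56.6). Tfec was at a log2 ratio of 2.40, and Pparg, the lipid-sensing receptor that drives Cd36, at 1.93. Nr1h3, the oxysterol receptor LXR-alpha, had 567 reads in diffDC and 1208 in maDC and was 3.15-fold lower (interval 2.85 to 3.48). Spi1, which encodes PU.1, had a log2 ratio of -0.18 and Stat6, the factor downstream of IL-4, of -0.36, and neither passed. Both signs turned with the authors' factor, to 0.26 and 0.08, and 6 of the 14 were then higher and 1 lower. Of all genes, 32.2% were higher and 15.7% lower with that factor.

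IL-4-associated macrophage genes, with which Mrc1 is usually listed, did not move one way. From 11 measured, 5 were higher and 4 lower, with a median log2 ratio of 0.50. Among all genes 23.3% were higher and 21.0% lower. Clec10a, a galactose lectin, had 87.32 reads in diffDC, or 0.911 CPM, and 0 in maDC. It was 19.7-fold higher against the floor of 3 reads, and its counting interval began at 15.6-fold. Its reads in diffDC carried decimals, so reads shared with other sequences could have been divided for it. Pdcd1lg2, the checkpoint ligand PD-L2, had 88.32 reads in diffDC and 14378.23 in maDC and was 241-fold lower (interval 196 to 301). Arg1, arginase, had 5302 reads in diffDC and 1494 in maDC, 2.40-fold higher (interval 2.27 to 2.55), while Chil3, a chitinase-like protein, had 389 reads in diffDC and 41633.99 in maDC, 158-fold lower (interval 143 to 175). Both were named after their values were seen.

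**Figure D4:**
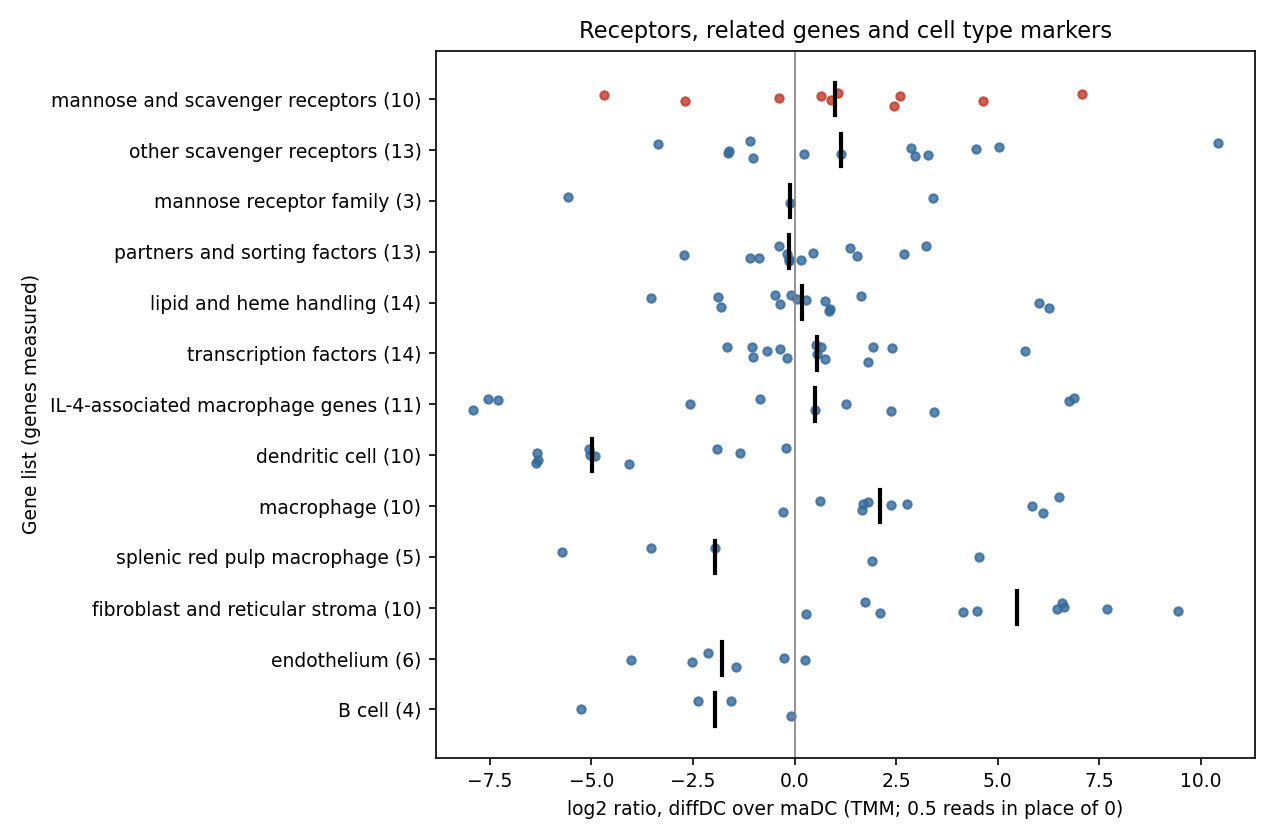
log2 ratio of diffDC over maDC (horizontal axis, TMM scaling) for each measured gene of the receptor set (red) and of related gene and marker lists (blue), with the number of genes in brackets; black bars are list medians. The receptors run between -4.68 and 7.07 with a median of 0.98, dendritic cell markers have a median of -4.98 and stroma markers of 5.46.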

How the data were processed

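RNA sequencing had been done on 6 libraries, 3 each of diffDC and maDC. Per the labels' protocols, RNA was extracted with TRIzol and sequenced on an Illumina HiSeq instrument. The builds GRCm38.p4 and mm10 come from the submitters' processing notes; the aligner, the counter and its use of strand are not given in the sources used here. The authors' deposited table gave 1 pooled value per gene and group, read here as estimated counts because 57.5% of diffDC and 58.2% of maDC values were whole within 0.005. It also held p-values and q-values per the file headers, which were not used, and log2 ratios. The deposited log2 ratios implied a log2 library factor of 0.127, against 0.563 from TMM; the deposited gene lengths served for levels per kilobase.

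These counts were rounded for TMM factors (edgeR 4.0.16, R 4.3.3), size factors (DESeq2 1.42.0) and exact Clopper-Pearson 95% intervals (scipy 1.17.1); 0.5 replaced 0 in ratios. CPM values are TMM-scaled, except the mean behind the limit of 5 CPM, which used library totals. Intervals and floors cover counting error only, since each group was 1 pooled value. The intervals treat reads as independent, which PCR copies are not, so they can be too narrow even for counting error. The planned edgeR test for libraries could not be run on pools. The procedure was tested on simulated data with known fold changes in a small part of the genes. The simulation held counting noise only, no spread between cultures, and far fewer changed genes than were called here. It could not show how the procedure deals with either. Members, 6 gene lists and 8 marker lists were chosen with earlier results of these data known. All members were named. From each of the 6 gene lists, the largest called rise and fall with at least 10 reads were named, and all genes of a list of 5 or fewer. That rule was not applied to the 8 marker lists. Any other gene was named after its values were seen. The adipocyte list (Adipoq, 1 read in each pool), the T cell list (Cd8a, 14 reads in diffDC and 46 in maDC) and the B cell list (summing to 0.668 CPM in diffDC and 1.02 CPM in maDC) were low in both pools.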

Additional observations from a re-analysis of the deposited data

How the results depend on the processing

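No paired analysis was possible because the table held pooled values with no replicate numbers, and for the same reason no replicate could be left out. Of the 10 receptors, DESeq2 size factors changed no call or sign, and another value in place of 0 could change none, since no receptor was at 0. Scaling by totals, a log2 shift of 0.19, took Scarb1 past the size limit at 1.09, and the authors' deposited factor took Cd36 and Scarb1 past it at 1.09 and 1.34 and turned Scarb2 to 0.0615. Of the receptors 4 were higher and 2 lower at 4-fold, without Cd68, and likewise 4 and 2 with a mean of at least 5 CPM, without Cd163. Over all genes, 2073 were higher and 1677 lower with a mean of at least 5 CPM, since fewer genes were tested, and 1982 were higher and 1847 lower at 4-fold. In the gene and marker lists, the limit of 5 CPM moved 6 of 28 counts of calls by more than 1.5 times. With merged exons as the length, 3 receptors in diffDC and 5 in maDC took another place in the order of levels; with the longest annotated transcript, added after seeing the data, 0 did in diffDC and 0 in maDC. Depth limits Cd163, which at 17.06 reads in diffDC and 1.92 in maDC gave an interval of 1.37 to 51.3, while differences between cultures limit every value and were not measured.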

Other observations

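Per kilobase, Mrc1 stood 1.05 times as high as C1qa, a complement gene of macrophages, in diffDC and 0.713 times as high in maDC, whereas it stood 2.41 times as high as Csf1r, the receptor that macrophages need to survive, in diffDC and 0.0928 times as high in maDC. The log2 ratio of Mrc1 was thus 0.55 above that of C1qa (interval 0.44 to 0.67) and 4.70 above that of Csf1r (interval 4.64 to 4.76), values that no library factor can change.

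Nt5dc2, the gene whose exons overlap Stab1 on the other strand over 112 bases, had 17591 reads in diffDC and 477 in maDC. Its log2 ratio was 4.64 (interval 4.51 to 4.78), and that of Stab1 was 4.64 (interval 4.59 to 4.69). The deposited reads of both genes were whole numbers in both pools, and whether reads were divided between them was not tested.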
